A study of Mus musculus with 12 samples.

Results

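The MHC class I presentation machinery was followed as 10 mouse genes chosen by symbol: the classical heavy chains H2-K1 and H2-D1, their light chain B2m, the peptide transporter genes Tap1 and Tap2, the loading factor Tapbp, the immunoproteasome subunits Psmb8, Psmb9 and Psmb10, and the transactivator Nlrc5. Of these 10, 9 were measured and 9 passed the filter on low counts, out of 37991 genes in all and 18981 tested. Psmb9 was not analysed here. Bone marrow-derived dendritic cells (BMDCs) of C57BL/6 background came in 4 groups of 3 libraries: cells labelled Vav1/2/3-/- (KO) with curdlan for 3 hours, the same KO cells left unstimulated, wild type (WT) cells with curdlan, and unstimulated WT cells. Curdlan is a particulate beta-glucan that dendritic cells recognise through the lectin receptor Dectin-1, and Vav proteins are guanine nucleotide exchange factors that act downstream of Syk-coupled receptors. Mouse age, the exons removed from each Vav gene and whether libraries came from separate mice were not given in the sources used here, so p-values measure the spread between these libraries, which may be technical.

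Class I molecules display peptides of cytosolic proteins to CD8 T cells. The proteasome cuts the proteins, with the immunoproteasome subunits taking the places of constitutive catalytic subunits in many haematopoietic and interferon-treated cells. Tap1 and Tap2 form the transporter that carries peptides into the endoplasmic reticulum, where tapasin (the product of Tapbp) bridges it to a heavy chain already paired with B2m. Nlrc5 encodes a transactivator that acts with the RFX, CREB/ATF and NF-Y factors on a conserved SXY module in class I promoters, and interferons raise most of these genes through IRF and STAT factors. Dendritic cells use this machinery also to cross-present engulfed antigen.

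Libraries held 41421718 to 61217861 counts, and the first principal component, with 67% of the variance, separated the KO-labelled from the WT libraries. Each group was sequenced on a lane of its own, so lane and group cannot be told apart. The genes named in the genotype label did not fall in the libraries that carry it. Vav2 averaged 287 ± 33.5 CPM (counts scaled to library size) with curdlan and 282 ± 6.04 CPM without in libraries labelled KO, against 69.3 ± 3.37 and 67.3 ± 3.10 CPM in WT libraries (SD, n = 3 each), and Vav1 was also higher (log2 fold changes of 0.63 with and 0.67 without curdlan, edgeR adjusted p = 2.89e-04 and 2.10e-04). Vav3 was higher in libraries labelled KO without curdlan (0.48, adjusted p = 0.0225) and did not pass with curdlan (−0.19, adjusted p = 0.315). Counts over a whole gene can include exons outside a deleted part, so these values do not check the alleles. Whether the labels were exchanged was not tested and cannot be told from these counts. The direction of each genotype comparison rests on the deposited labels, and the libraries are called KO-labelled for that reason.

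Markers of other cells also differed between the labels, where 51.4% of all tested genes were called with curdlan and 44.4% without. Whether any marker list exceeds those shares was not tested. The summed level of 13 macrophage markers was 5625 to 6636 CPM with curdlan and 6051 to 7204 CPM without in KO-labelled libraries, against 1949 to 2126 and 2054 to 2162 CPM in WT libraries, with 10 of 13 called higher in each state and 1 lower with curdlan. Of 16 conventional dendritic cell markers, 8 were higher and 4 lower in KO-labelled libraries without curdlan, and 7 and 5 with it; their summed level was 19620 to 25560 CPM with curdlan and 18060 to 22910 CPM without in KO-labelled libraries, against 11030 to 11500 and 10760 to 10960 CPM in WT libraries. Most of that sum came from the class II pathway genes Cd74, H2-Aa, H2-Ab1 and H2-Eb1. Cd74 alone was at 9882 to 12810 CPM in unstimulated KO-labelled and 5966 to 6064 CPM in unstimulated WT libraries. The sum therefore does not stand for the list as a whole. Other genes of the list lay higher without overlap in unstimulated KO-labelled than in unstimulated WT libraries. These were Cd209a (28.49 to 127.9 against 3.748 to 4.752 CPM), Ciita (334.1 to 409.3 against 91.25 to 113.4 CPM) and Dpp4 (16.13 to 21.64 against 12.68 to 14.44 CPM). Irf8 (124.2 to 145.2 against 109.2 to 116.6 CPM) and Xcr1 (2.067 to 2.456 against 1.798 to 2.004 CPM) were apart by a small step. The integrin gene Itgax was lower, at 699 to 834 CPM in unstimulated KO-labelled libraries and 1424 to 1591 CPM in unstimulated WT libraries. So were Ccr7 (67.6 to 89.5 against 121 to 139 CPM), Clec9a (0.0596 to 0.275 against 8.36 to 11.1 CPM) and Batf3 (8.31 to 11.3 against 15.1 to 18.7 CPM). Neutrophil markers (10 of 12 higher, 7262 to 11040 against 4958 to 6197 CPM without curdlan) and mast cell and basophil markers (8 of 9 higher, 308 to 473 against 69.0 to 78.3 CPM) were higher in KO-labelled libraries. B cell markers were lower (9 of 10 tested, 17.1 to 23.6 against 61.3 to 77.2 CPM without curdlan). Ms4a1 was at 0 in all unstimulated KO-labelled libraries and at 9.17 to 11.6 CPM in unstimulated WT libraries. Igll1 was at 0 in the same KO-labelled libraries but reached only 0.0173 CPM in unstimulated WT libraries. Cd22 overlapped between the labels (14.7 to 21.8 against 14.0 to 18.3 CPM without curdlan). The part of these markers in the results below was not tested, and in bulk RNA fewer cells of a type and less RNA per cell cannot be told apart.

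The promoters of H2-K1, H2-D1 and B2m are shown because these genes encode the surface molecule itself and were higher in KO-labelled than in WT libraries in both states. Tap1, Tap2 and Tapbp were also called higher in both states. Promoter windows from RefSeq (build GRCm38.p6, 250 bases before to 50 bases after the transcription start) were found for 8 of the 10 members. For each measured member the window whose start lay nearest the GENCODE start of the gene was used. The windows of H2-D1, Tapbp and Psmb8 still lie inside the GENCODE gene spans given below, so positions before the start refer to the RefSeq start. A TGACG and an ATTGG separated by exactly 20 bases, letters like those of the X2 and inverted CCAAT elements of the SXY module (its S and X1 elements were not searched), stood in the windows of H2-K1, H2-D1 and B2m and of no other member with a window. The pair and its spacing were chosen after these sequences had been read. Over all 32851 promoter windows, 0.0944% held the pair on either strand, in 27 genes, among them the class I-like gene H2-M3. None of the 5 listed H2-Q genes with a window held it. Whether the pair bears on the levels of any gene was not tested. The 30 bases of the 3 modules, with the pair in capitals, are:
H2-K1: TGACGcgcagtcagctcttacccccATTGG
H2-D1: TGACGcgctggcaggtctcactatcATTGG
B2m: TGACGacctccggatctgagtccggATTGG
The H2-K1 and H2-D1 modules had the same base at 23 of 30 positions, and the B2m module matched H2-K1 at 13 and H2-D1 at 12.

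In the whole windows below, capitals mark the same pair and matches to a kB-like motif (GGGNNNTCCC, either strand), an ISRE-like motif (GAAANNGAAA) or a GAS-like motif (TTCNNNGAA). These 3 motifs were held by 5.55%, 3.44% and 8.3% of all windows. The windows lie at chr17:34000298-34000597 on the minus strand (H2-K1), chr17:35262844-35263143 on the plus strand (H2-D1), chr2:122147437-122147736 on the plus strand (B2m) and chr17:34187306-34187605 on the plus strand (Tap1).
H2-K1: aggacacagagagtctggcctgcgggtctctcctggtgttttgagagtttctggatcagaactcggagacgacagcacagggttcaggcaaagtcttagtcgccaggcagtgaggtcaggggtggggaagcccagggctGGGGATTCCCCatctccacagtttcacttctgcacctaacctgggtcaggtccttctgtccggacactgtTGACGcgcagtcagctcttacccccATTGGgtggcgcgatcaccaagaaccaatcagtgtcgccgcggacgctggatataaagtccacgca
H2-D1: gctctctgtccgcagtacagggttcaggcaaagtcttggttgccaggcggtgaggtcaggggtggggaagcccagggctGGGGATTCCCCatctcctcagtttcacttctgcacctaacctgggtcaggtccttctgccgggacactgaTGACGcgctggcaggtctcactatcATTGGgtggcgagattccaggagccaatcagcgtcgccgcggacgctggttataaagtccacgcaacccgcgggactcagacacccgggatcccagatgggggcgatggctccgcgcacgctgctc
B2m: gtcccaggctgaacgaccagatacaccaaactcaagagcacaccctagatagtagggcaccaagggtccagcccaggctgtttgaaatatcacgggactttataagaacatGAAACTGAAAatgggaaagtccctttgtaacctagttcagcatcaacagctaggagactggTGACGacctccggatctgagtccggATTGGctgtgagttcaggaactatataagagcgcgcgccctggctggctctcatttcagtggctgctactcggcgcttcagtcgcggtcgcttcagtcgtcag
Tap1: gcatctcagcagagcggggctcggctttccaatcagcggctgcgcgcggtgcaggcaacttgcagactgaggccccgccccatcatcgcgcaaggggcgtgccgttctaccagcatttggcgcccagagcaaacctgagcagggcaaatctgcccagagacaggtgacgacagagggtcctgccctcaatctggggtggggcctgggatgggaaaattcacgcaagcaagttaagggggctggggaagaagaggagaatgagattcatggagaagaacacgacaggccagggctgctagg
H2-K1 and H2-D1 share a kB-like match, with an overlapping match on the other strand, and 60 bases lie between it and the module in each. From the start of that match to the end of the module, 89 of 100 bases were the same. B2m has an ISRE-like match at 139 to 130 bases before its start. Tap1, shown because it was the member called after curdlan in both genotypes, had no match to the 3 motifs or the pair and held a lone TGACG at 86 to 82 bases before its start. Its window overlaps that of Psmb9, which is read from the opposite strand. Psmb8 had a GAS-like match at 97 to 89 bases before its start. A match is a description of letters, and no match says only that the letters are not in the window.

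By position (GRCm38, GENCODE M21), 6 of the 9 measured members lie in 1.35 Mb of chromosome 17: Tapbp (33915899 to 33929292), H2-K1 (33996017 to 34000347), Tap1 (34187553 to 34197225), Psmb8 (34197721 to 34201454), Tap2 (34203527 to 34216321) and H2-D1 (35262730 to 35267499). B2m lies on chromosome 2 (122147686 to 122153083), and Nlrc5 (94434356 to 94527272) and Psmb10 (105935735 to 105938444) on chromosome 8. Class I genes are close copies of one another. Of the distinct 50-base words in the annotated transcripts of H2-K1 and H2-D1, 9.63% and 12.8% also occur in transcripts of another gene, and how reads that fit several genes were counted was not given, so a small part of these counts could belong to a neighbour.

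The 9 members together took 0.467 to 0.542% of all counts in KO-labelled libraries and 0.351 to 0.411% in WT libraries. Scaled by exon length, B2m stood highest in every group, at a mean of 2310 CPM per kb in curdlan-treated and 2546 CPM per kb in unstimulated KO-labelled libraries, against 1710 and 1715 CPM per kb in WT libraries. H2-K1 (460, 424, 277 and 254 CPM per kb in the same order of groups) and H2-D1 (328, 287, 175 and 169) followed, and Tapbp (150, 101, 80.6 and 67.8) came next. Psmb8, Psmb10, Tap1 and Tap2 lay between 19.5 and 57.5 CPM per kb. Within that band neighbours overlapped in part: in unstimulated WT libraries the ranges of Psmb8 and Psmb10 overlapped, and in curdlan-treated KO-labelled libraries Psmb10, Tap1 and Tap2 overlapped. Nlrc5 was lowest in every group, at 9.11, 6.01, 7.06 and 5.34 CPM per kb.

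**Figure D1:**
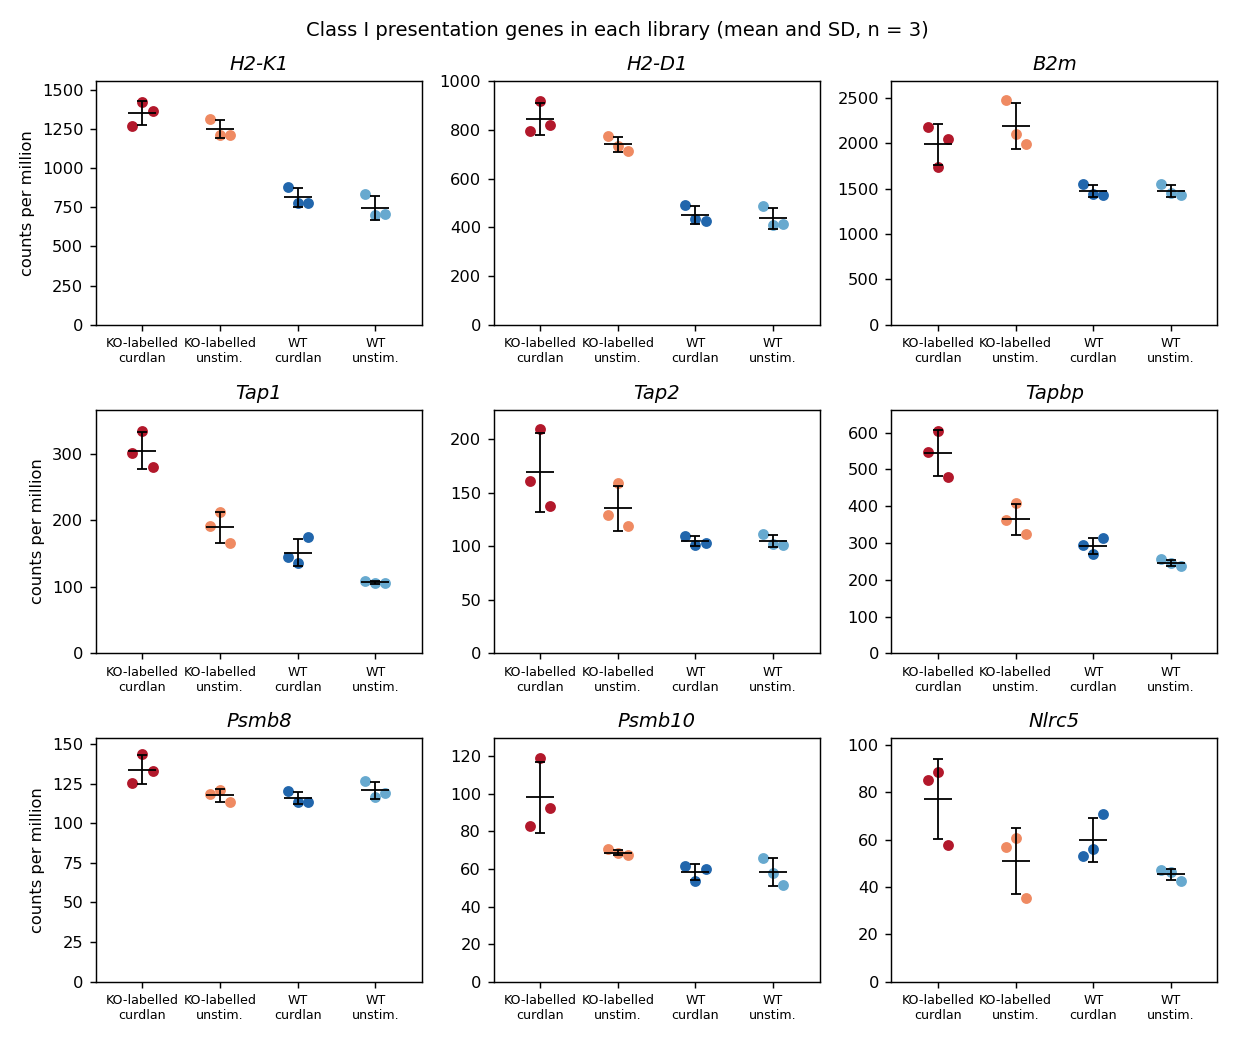
CPM (vertical axis, from 0) of the 9 measured members in each of 12 libraries (points), with group mean and SD (black bars, n = 3) for KO-labelled and WT cells with curdlan or unstimulated. H2-K1, H2-D1, B2m, Tap1, Tap2, Tapbp and Psmb10 separate the labels in both states. Psmb8 stays between 113 and 144 CPM in all 12 libraries and separates the labels only with curdlan.

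The comparison of KO-labelled with WT cells asks whether the antigen presentation genes differ with genotype. Without curdlan, 6 of 9 members were higher in KO-labelled libraries and none lower, where 44.4% of all tested genes were called, 21.1% higher and 23.3% lower. With curdlan, 8 of 9 were higher and none lower, where 51.4% of all genes were called, 24.7% higher and 26.8% lower. The members' median log2 fold changes were 0.57 and 0.74, and those of all tested genes were −0.01 and 0.01. Scaling by library size alone, which moves the median of all genes to −0.19 and −0.24, gave 5 higher and 1 lower without curdlan and 6 higher and none lower with it.

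The heavy chains and their light chain, which form the molecule at the cell surface, were higher in KO-labelled cells in both states. In library order, H2-K1 was at 1271, 1423 and 1365 CPM with curdlan and 1314, 1214 and 1214 CPM without in KO-labelled libraries, against 880, 780 and 778 CPM and 836, 701 and 705 CPM in WT libraries. H2-D1 was at 797, 918 and 820 CPM with curdlan and 775, 734 and 713 CPM without in KO-labelled libraries, against 493, 433 and 427 CPM and 488, 410 and 412 CPM in WT libraries. For both genes every KO-labelled library lay above every WT library. The log2 fold changes with curdlan were 0.74 ± 0.09 (SE) for H2-K1 and 0.91 ± 0.09 for H2-D1, and without curdlan 0.74 ± 0.09 and 0.76 ± 0.09 (edgeR adjusted p from 9.39e-06 to 3.91e-05). B2m was at 2179, 1737 and 2045 CPM with curdlan and 2477, 2105 and 1987 CPM without in KO-labelled libraries, against 1546, 1441 and 1426 CPM and 1551, 1449 and 1424 CPM in WT libraries. The groups did not overlap in either state, and the log2 fold change was 0.43 ± 0.10 with curdlan (adjusted p = 0.00410) and 0.57 ± 0.10 without (adjusted p = 7.89e-04). With library size alone the B2m difference with curdlan was 0.19 and did not pass (adjusted p = 0.145).

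The genes of peptide import and loading followed the same direction with a wider spread. Tap1 was at 301, 334 and 279 CPM with curdlan and 191, 212 and 166 CPM without in KO-labelled libraries, against 145, 135 and 174 CPM and 109, 106 and 106 CPM in WT libraries. Its log2 fold change was 1.01 ± 0.11 with curdlan (adjusted p = 1.49e-05), the largest among the members, and 0.83 ± 0.11 without (adjusted p = 7.42e-05). Tapbp was at 549, 605 and 480 CPM with curdlan and 362, 409 and 324 CPM without in KO-labelled libraries, against 294, 270 and 313 CPM and 255, 245 and 238 CPM in WT libraries. The groups were apart in both states, with log2 fold changes of 0.90 ± 0.10 with curdlan and 0.57 ± 0.10 without (adjusted p = 2.25e-05 and 7.18e-04).

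Tap2, the partner of Tap1 in the transporter, differed less. It was at 161, 209 and 137 CPM with curdlan and 129, 159 and 119 CPM without in KO-labelled libraries, against 110, 102 and 103 CPM and 112, 102 and 102 CPM in WT libraries. With curdlan the log2 fold change was 0.69 ± 0.14 (adjusted p = 0.00134). Without curdlan it was 0.36 ± 0.14 with an adjusted p of 0.0495, and leaving out any 1 of the 6 WT libraries, of unstimulated KO-labelled libraries 1 and 2, or curdlan-treated KO-labelled library 2 ended the call (log2 fold changes of 0.23 to 0.41, adjusted p from 0.057 to 0.215). It also ended with upper-quartile factors (0.33, adjusted p = 0.0743) and with library size alone (0.18, adjusted p = 0.303).

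Without curdlan, neither the immunoproteasome subunits nor Nlrc5 passed the test, and whether they differ from the other members was not tested. Psmb8, the beta5i subunit, was at 125, 144 and 133 CPM with curdlan and 119, 121 and 113 CPM without in KO-labelled libraries, against 120, 114 and 114 CPM and 127, 116 and 119 CPM in WT libraries. The unstimulated groups overlapped (log2 fold change −0.04 ± 0.07, adjusted p = 0.682), and the curdlan-treated groups were apart by a small step (0.21 ± 0.07, adjusted p = 0.0206). That step was −0.04 with library size alone, its adjusted p was 0.0675 with no filter and 0.0722 with the curdlan groups fitted alone, and its adjusted p was 0.0744 without WT curdlan library 2 (log2 fold change 0.19), 0.0641 without WT curdlan library 4 (0.19) and 0.0930 without KO-labelled curdlan library 4 (0.15). Psmb10, the beta2i subunit, was at 82.7, 119 and 92.6 CPM with curdlan and 70.4, 68.4 and 67.5 CPM without in KO-labelled libraries, against 61.5, 53.8 and 59.9 CPM and 65.9, 57.8 and 51.3 CPM in WT libraries. No library overlapped between the labels in either state, yet the difference passed only with curdlan (0.75 ± 0.12, adjusted p = 3.35e-04) and not without (0.24 ± 0.12, adjusted p = 0.142).

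Nlrc5 did not pass in either state. It was at 85.3, 88.8 and 57.9 CPM with curdlan and 57.0, 60.9 and 35.3 CPM without in KO-labelled libraries, against 53.3, 55.9 and 70.7 CPM and 47.0, 46.4 and 42.6 CPM in WT libraries. The low values of both KO-labelled states came from library 5, and the groups overlapped in both states (log2 fold change 0.37 ± 0.20 with curdlan, adjusted p = 0.140, and 0.17 ± 0.20 without, adjusted p = 0.526). Without KO-labelled curdlan library 5 the difference with curdlan was 0.54 (adjusted p = 0.0334). These p-values do not show that Nlrc5 was equal between the labels.

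**Figure D2:**
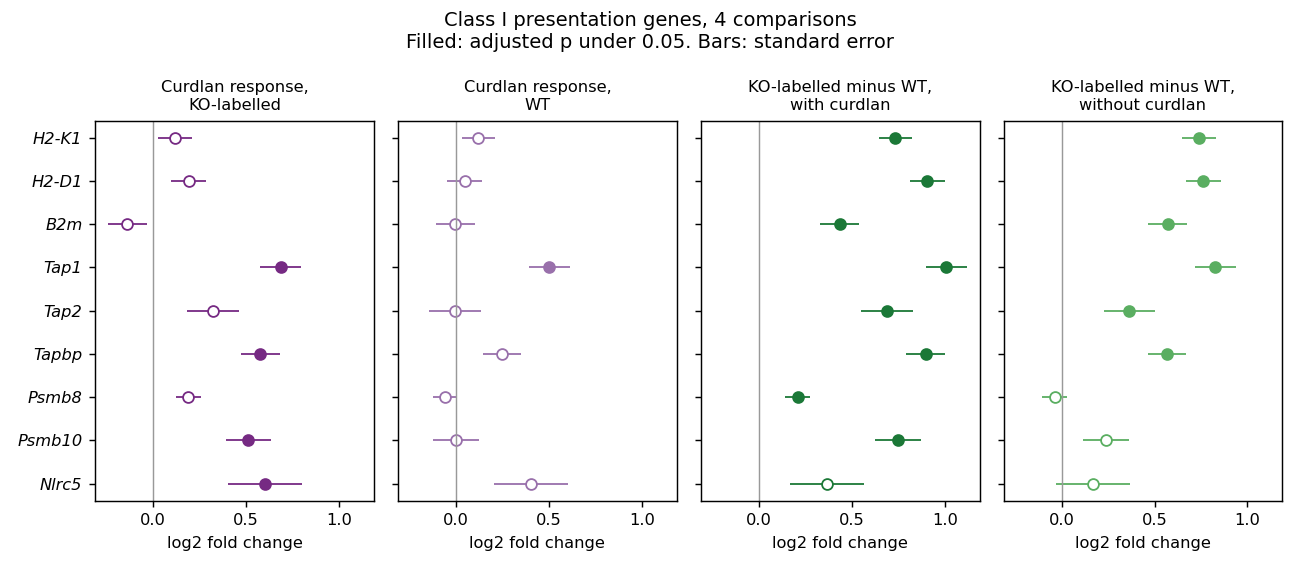
Log2 fold changes (horizontal axis) with standard errors for the 9 measured members in the curdlan responses of KO-labelled and WT cells and in the KO-labelled minus WT differences with and without curdlan; filled points passed an adjusted p of 0.05. The differences between the labels lie to the right of 0 for all 9 members with curdlan (Psmb8 lies at −0.04 with library size alone), and for all but Psmb8 without (Nlrc5 then also lies at −0.01).

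The curdlan comparisons ask which genes answer the Dectin-1 stimulus within 3 hours. In KO-labelled cells 4 of 9 members were higher with curdlan, Tap1, Tapbp, Psmb10 and Nlrc5, and none lower, where 28.6% of all genes were called, 14% higher and 14.6% lower. In WT cells 1 of 9, Tap1, was higher and none lower, where 19.8% of all tested genes were called, 11.4% higher and 8.4% lower. The members' median log2 fold changes were 0.32 in KO-labelled and 0.05 in WT cells, against 0.00 and −0.03 over all tested genes. With library size alone, where the median of all genes sits at −0.20 in KO-labelled and −0.17 in WT cells, the calls were 2 higher and 1 lower (B2m, −0.34) in KO-labelled cells and 1 higher and 1 lower (Psmb8, −0.19) in WT cells.

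Tap1 was the member with the clearest answer. All 3 curdlan-treated libraries lay above all 3 unstimulated ones in each genotype, with a log2 fold change of 0.69 ± 0.11 in KO-labelled cells (adjusted p = 7.52e-04) and 0.50 ± 0.11 in WT cells (adjusted p = 0.00692). Tapbp gained 0.58 ± 0.10 in KO-labelled cells (adjusted p = 0.00152) and had a log2 fold change of 0.25 ± 0.10 in WT cells, which did not pass (adjusted p = 0.111). Psmb10 gained 0.51 ± 0.12 in KO-labelled cells (adjusted p = 0.00899), and in WT cells its log2 fold change was 0.00 ± 0.12. With library size alone Psmb10 had 0.31 there (adjusted p = 0.0632). Nlrc5 passed in KO-labelled cells (0.60 ± 0.20, adjusted p = 0.0396) although its groups overlapped, and in WT cells it had 0.40 ± 0.20 (adjusted p = 0.175) with groups that did not overlap.

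The Nlrc5 call in KO-labelled cells rested on few libraries: it had an adjusted p of 0.0529 to 0.142, and log2 fold changes of 0.39 to 0.69, when any 1 of the unstimulated WT libraries, WT curdlan library 2, unstimulated KO-labelled library 1 or 5, or curdlan-treated KO-labelled library 2 or 4 was left out, 0.130 with library size alone and 0.110 with the KO-labelled groups fitted alone. Tap2 did not pass in KO-labelled cells (0.32 ± 0.14, adjusted p = 0.105) but did without unstimulated library 2 (0.45, adjusted p = 0.0375) or without curdlan-treated library 5 (0.44, adjusted p = 0.0288). Psmb8 did not pass either (0.19 ± 0.07, adjusted p = 0.0542) and did without curdlan-treated library 2 (0.23, adjusted p = 0.0274) and with DESeq2 (0.18, adjusted p = 0.0345). The surface molecule itself showed no called change: H2-K1, H2-D1 and B2m had log2 fold changes of 0.12, 0.19 and −0.14 in KO-labelled cells and 0.12, 0.05 and 0.00 in WT cells.

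Libraries of one genotype that share a number tended to deviate together, with correlations of 0.129 to 0.557. Pairs with different numbers had −0.47 to 0.246, so the 2 ranges overlap. The curdlan comparisons were repeated with library number as a replicate block. In KO-labelled cells, where only libraries 2 and 5 occur in both states, the block again gave 4 calls. With the block, 3 members passed in WT cells: Tap1, Tapbp (0.25, adjusted p = 0.00741) and Nlrc5 (0.39, adjusted p = 0.00442). The block also raised the calls over all 18981 tested genes, from 3759 to 7276 in WT cells and from 5425 to 5625 in KO-labelled cells. Whether the members exceed that share was not tested.

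The difference between the curdlan responses, KO-labelled minus WT, was called for 0 of 9 members by edgeR, and DESeq2 also called 0. Over all tested genes 5.21% were called, 1.61% with a higher and 3.6% with a lower response in KO-labelled cells. At an unadjusted p under 0.05 stood 3 members, all with a larger response in KO-labelled cells: Psmb10 (0.51 ± 0.17, adjusted p = 0.0968), Psmb8 (0.25 ± 0.09, adjusted p = 0.130) and Tapbp (0.33 ± 0.15, adjusted p = 0.179). With the replicate block Psmb10 passed (0.36, adjusted p = 0.0492), and it also passed without curdlan-treated KO-labelled library 2 (0.62, adjusted p = 0.0296). Over all genes those 2 settings called 2671 and 2837, against 989 in the reported fit. The Tap1 and Nlrc5 differences were 0.18 ± 0.15 and 0.20 ± 0.28, so the larger number of calls in KO-labelled cells was not shown to be a difference between the genotypes for those genes.

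Ratios of counts within a library need no scaling between libraries, and they set each immunoproteasome subunit against the constitutive subunit it replaces. They are not scaled by exon length, so only their differences between groups are read, not whether they exceed 1. Per kb, Psmb8 lay below Psmb5 in every group (35.7 against 73.1 CPM per kb in unstimulated WT libraries). Psmb10 lay above Psmb7 in every group (34.2 against 28.8 CPM per kb in the same libraries). The Psmb8 to Psmb5 ratio was 2.05 ± 0.173 with curdlan and 2.15 ± 0.134 without in KO-labelled libraries, against 1.78 ± 0.0818 and 1.84 ± 0.0768 in WT libraries (SD, n = 3 each). Every KO-labelled library lay above every WT library of its state (two-sided exact permutation p = 0.1 in each of these comparisons, the smallest that 3 against 3 allows). Without curdlan the higher ratio went with lower Psmb5 and not with higher Psmb8. Psmb5 averaged 54.9 ± 1.94 CPM in unstimulated KO-labelled and 65.7 ± 5.43 CPM in unstimulated WT libraries, and Psmb8 averaged 118 ± 4.02 and 121 ± 5.20 CPM. With curdlan Psmb5 averaged 65.9 ± 9.99 CPM in KO-labelled and 65.2 ± 3.53 CPM in WT libraries. Psmb10 to Psmb7 was 1.12 ± 0.301 with curdlan and 0.789 ± 0.0312 without in KO-labelled libraries, against 0.609 ± 0.0479 and 0.594 ± 0.0813 in WT libraries. The groups were apart between the labels in both states and between the states in KO-labelled cells (exact permutation p = 0.1 each), and they overlapped between the states in WT cells (exact permutation p = 0.9). Psmb7 averaged 88.5 ± 6.53 CPM with and 87.2 ± 1.74 CPM without curdlan in KO-labelled libraries, against 96.0 ± 3.54 and 98.4 ± 3.02 CPM in WT libraries.

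H2-K1 and H2-D1 kept a nearly fixed proportion. H2-K1 had 1.60 ± 0.0574 times the counts of H2-D1 with curdlan and 1.68 ± 0.0267 times without in KO-labelled libraries, against 1.803 ± 0.0187 and 1.71 ± 0.0025 times in WT libraries. The ratio was lower in every KO-labelled than in every WT library of the same state, by 0.17 (log2) with curdlan and 0.02 without (exact permutation p = 0.1 each). In WT cells it was higher in every curdlan-treated than in every unstimulated library, by 0.07 (exact permutation p = 0.1). No ratio was tested below that smallest p, and with 12 such comparisons none passes 0.05.

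**Figure D3:**
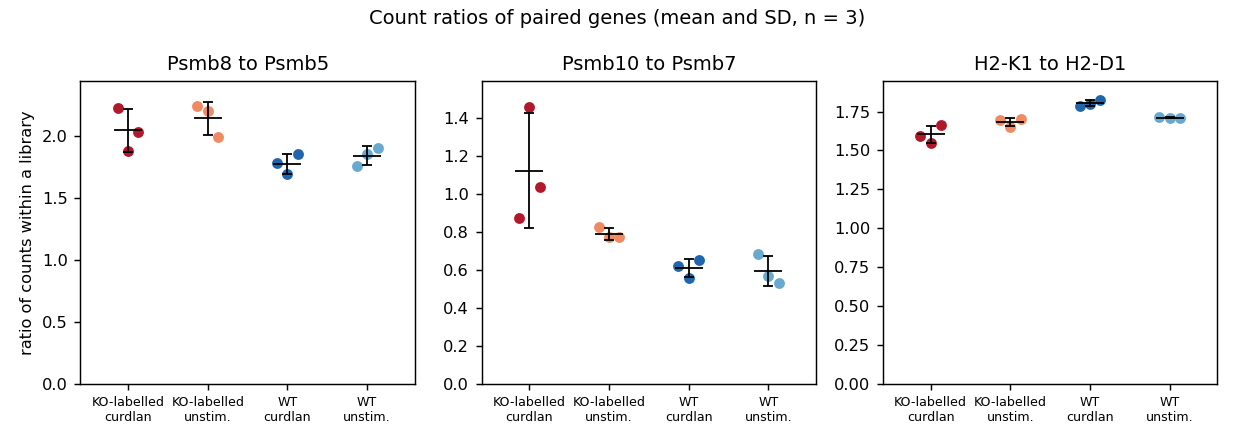
Ratio of counts of 2 genes within each library (vertical axis, from 0; points are libraries, bars are mean and SD, n = 3) for Psmb8 to Psmb5, Psmb10 to Psmb7 and H2-K1 to H2-D1 in the 4 groups. Psmb10 to Psmb7 averages 1.12 in curdlan-treated KO-labelled libraries and between 0.594 and 0.789 in the other groups.

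The other class I and class I-like heavy chains were measured as a list of 23 genes, of which 19 had a row and were tested. Between the labels, 17 were higher and 2 lower without curdlan, and 16 were higher and 1 lower with it. Their median log2 fold changes were 0.75 and 0.74 (KO-labelled minus WT). With library size alone the counts were 15 and 2, and 16 and 3. Of all tested genes, 21.1% were higher and 23.3% lower without curdlan, and 24.7% and 26.8% with it. Each of 7 tested H2-Q genes was higher in both states, with log2 fold changes of 0.56 to 0.93 with curdlan and 0.71 to 0.80 without. H2-Q4 averaged 170 ± 21.8 CPM with curdlan and 135 ± 6.66 CPM without in KO-labelled libraries, against 89.2 ± 8.94 and 80.8 ± 12.3 CPM in WT libraries. H2-Q7 and the pseudogene H2-K2 had log2 fold changes of 0.80 ± 0.08 and 0.82 ± 0.10 without curdlan (adjusted p = 1.14e-05 and 4.02e-05). Among the 50-base words of H2-Q4, H2-Q5, H2-Q6 and H2-Q7, 21.8 to 36.4% also occur in another gene's transcripts, so the values of single Q genes are uncertain.

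Class I-like chains with other tasks differed in size and direction. Fcgrt, the heavy chain of the neonatal Fc receptor, averaged 163 ± 60.4 CPM with curdlan and 155 ± 56.2 CPM without in KO-labelled libraries, against 31.3 ± 2.01 and 40.9 ± 1.73 CPM in WT libraries, log2 fold changes of 2.38 ± 0.29 and 1.92 ± 0.28 (adjusted p = 3.44e-05 and 1.63e-04). Hfe, the B2m-bound regulator of iron uptake, was higher in both states (0.92 ± 0.09 with and 0.90 ± 0.09 without curdlan). Mr1, which presents microbial metabolites to MAIT cells, was lower in both states (6.67 ± 0.630 and 10.51 ± 2.44 CPM in KO-labelled libraries, against 11.5 ± 0.952 and 17.01 ± 0.417 CPM in WT libraries). It was also the gene of this list that fell with curdlan in both genotypes, by 0.65 in KO-labelled and 0.56 in WT cells on the log2 scale (adjusted p = 0.00479 and 0.0112). H2-M3, which presents formylated peptides, was higher in KO-labelled libraries (0.74 ± 0.08 with and 0.78 ± 0.08 without curdlan) and rose with curdlan in both genotypes (0.36 ± 0.08 and 0.40 ± 0.08, adjusted p = 0.00404 and 0.00272). H2-T24 and H2-T10 rose in KO-labelled cells (0.64 ± 0.13 and 0.61 ± 0.14) and had 0.32 ± 0.13 and 0.12 ± 0.14 in WT cells. Of the 50-base words of H2-T10, annotated as a polymorphic pseudogene, 32.9% also occur in another gene's transcripts, so its own value is uncertain too. H2-M2 had 0.20 ± 0.13 in KO-labelled cells and rose in WT cells (0.78 ± 0.13). With curdlan, 5 of the 19 rose and 1 fell in KO-labelled cells, and 2 rose and 1 fell in WT cells (with library size alone, 2 and 2, and 2 and 3). Of all tested genes, 14% rose and 14.6% fell in KO-labelled cells, and 11.4% rose and 8.4% fell in WT cells. No difference of the responses was called among the 19 heavy chains.

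**Figure D4:**
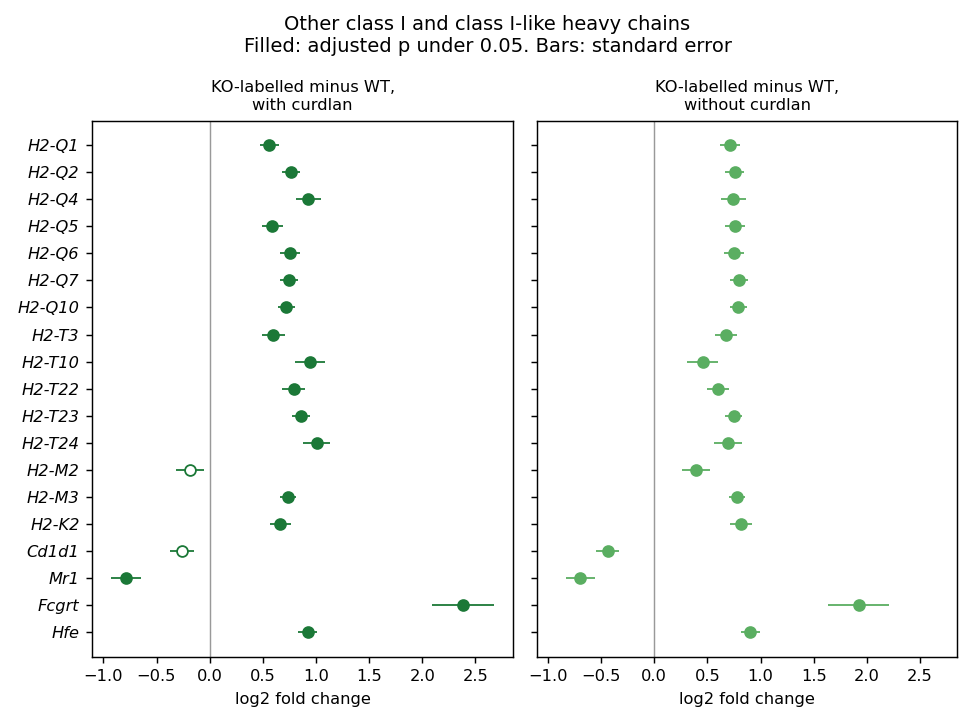
Log2 fold changes (horizontal axis) with standard errors of 19 other class I and class I-like heavy chains for KO-labelled minus WT with curdlan (left) and without (right); filled points passed an adjusted p of 0.05. The H2-Q genes lie between 0.56 and 0.93 with curdlan, Fcgrt lies near 2, and Mr1 lies below 0.

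Partners of the pathway outside the class I genes went in both directions. Of 18 genes for loading, trimming and chaperones of the endoplasmic reticulum, 2 were higher and 4 lower in KO-labelled libraries in each state. Their median log2 fold changes were −0.07 with and without curdlan. With library size alone, none was higher, 12 were lower with and 9 without curdlan. Over all tested genes 51.4% were called with curdlan and 44.4% without, and whether this list differs from that share was not tested. Hsp90b1 was lower in KO-labelled libraries (528 ± 32.6 and 496 ± 5.11 CPM, against 672 ± 19.0 and 668 ± 20.4 CPM in WT libraries), and so was Calr, the chaperone of the loading complex, with curdlan (−0.32 ± 0.08, adjusted p = 0.00612). Thop1, a cytosolic peptidase, was lower in both states (−0.76 ± 0.13 and −0.88 ± 0.13). Tapbpl, the tapasin-related editor, was higher without curdlan (0.39 ± 0.14, adjusted p = 0.0367). With curdlan, 4 of the 18 rose in KO-labelled cells (Lap3, Sec61b, Sec61g and Hspa5) and 1 in WT cells (Hspa5), where 14% and 11.4% of all tested genes rose. With library size alone, 2 were higher and 8 lower in KO-labelled cells and 1 higher and 5 lower in WT cells. Hspa5, the chaperone BiP, averaged 1127 ± 69.3 CPM with and 822 ± 19.1 CPM without curdlan in KO-labelled cells, and 1290 ± 61.2 and 669 ± 10.1 CPM in WT cells.

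Among 12 constitutive counterparts, PA28 subunits and assembly factors of the proteasome, 2 were higher and 5 lower in KO-labelled libraries without curdlan and 4 higher and 1 lower with it (with library size alone, 0 and 7, and 2 and 6). Over all tested genes 44.4% were called without curdlan and 51.4% with it, and whether this list differs from that share was not tested. The PA28 activator genes stood out with curdlan: Psme2 averaged 209 ± 27.7 CPM in KO-labelled and 132 ± 7.08 CPM in WT libraries (log2 fold change 0.66 ± 0.09, adjusted p = 1.01e-04), and Psme1 averaged 179 ± 3.31 and 130 ± 4.74 CPM (0.46 ± 0.06, adjusted p = 5.04e-05). Both rose with curdlan in KO-labelled cells (0.47 ± 0.09 and 0.26 ± 0.06). The assembly chaperone genes Psmg1, Psmg2 and Psmg3 were lower in KO-labelled libraries without curdlan (−0.44, −0.73 and −0.57). Pomp, which joins the immunoproteasome during assembly, rose in KO-labelled cells with curdlan (0.50 ± 0.12, adjusted p = 0.00853). Psmb6, the constitutive beta1 subunit, rose with curdlan in both genotypes (0.29 ± 0.09 and 0.27 ± 0.09) and was higher in KO-labelled libraries (0.39 ± 0.09 with and 0.37 ± 0.09 without curdlan). With curdlan, 4 of the 12 rose and none fell in KO-labelled cells, and 1 rose and 1 fell (Psmg2, −0.43) in WT cells. With library size alone the counts were 1 and 2, and 0 and 4. The shares of all tested genes called with curdlan were 28.6% in KO-labelled and 19.8% in WT cells.

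The curdlan responses of several factors that drive or relay class I transcription were larger than those of the members. The factors named here are those with the largest changes in their list. Over the whole list the median log2 fold change was −0.16 in KO-labelled and 0.25 in WT cells, against 0.32 and 0.05 for the members. Of 29 tested regulators, 10 rose and 7 fell with curdlan in KO-labelled cells, and 12 rose and 1 fell in WT cells. With library size alone the counts were 7 and 15, and 9 and 5. Of all tested genes, 14% rose and 14.6% fell in KO-labelled cells, and 11.4% rose and 8.4% fell in WT cells. Ifnb1, which encodes interferon beta, averaged 30.8 ± 10.2 CPM with and 1.49 ± 0.536 CPM without curdlan in KO-labelled cells (log2 fold change 4.39 ± 0.33), and 5.57 ± 1.92 and 0.106 ± 0.0074 CPM in WT cells (5.68 ± 0.47). Irf7, an interferon-induced activator, rose by 1.31 ± 0.29 in KO-labelled and 2.12 ± 0.31 in WT cells on the log2 scale. Stat2 rose by 1.08 ± 0.18 and 1.11 ± 0.18, and Irf1, a direct activator of class I promoters, rose by 0.90 ± 0.14 in KO-labelled and 0.98 ± 0.14 in WT cells. Irf9, the DNA-binding partner of Stat2, rose by 0.72 ± 0.11 in KO-labelled and 1.08 ± 0.11 in WT cells. The log2 fold changes of the members with curdlan ran from −0.14 to 0.69 in KO-labelled and from −0.06 to 0.50 in WT cells.

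Between the labels, 15 regulators were higher and 6 lower in KO-labelled libraries with curdlan, and 19 higher and 2 lower without. With library size alone the counts were 10 and 8, and 17 and 6. Of all tested genes, 24.7% were higher and 26.8% lower with curdlan, and 21.1% and 23.3% without. Irf1 averaged 906 ± 127 CPM with and 486 ± 68.8 CPM without curdlan in KO-labelled libraries, against 202 ± 34.4 and 102 ± 9.01 CPM in WT libraries (log2 fold changes 2.17 ± 0.15 and 2.25 ± 0.15, adjusted p = 4.77e-07 and 2.95e-07). Irf7 averaged 112 ± 26.0 and 45.3 ± 11.1 CPM in KO-labelled libraries, against 28.9 ± 14.1 and 6.63 ± 0.876 CPM in WT libraries. Ciita, the class II counterpart of Nlrc5, averaged 236 ± 69.0 and 373 ± 37.7 CPM in KO-labelled libraries, against 153 ± 20.5 and 103 ± 11.2 CPM in WT libraries. Nlrc5 is the member in this position, and it did not pass the test in either state. The interferon receptor genes Ifnar1 and Ifnar2 had lower curdlan responses in KO-labelled than in WT cells (differences of −0.52 ± 0.11 and −0.46 ± 0.10, adjusted p = 0.0216 and 0.0240), as did Ciita (−1.23 ± 0.25, adjusted p = 0.0166).

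**Figure D5:**
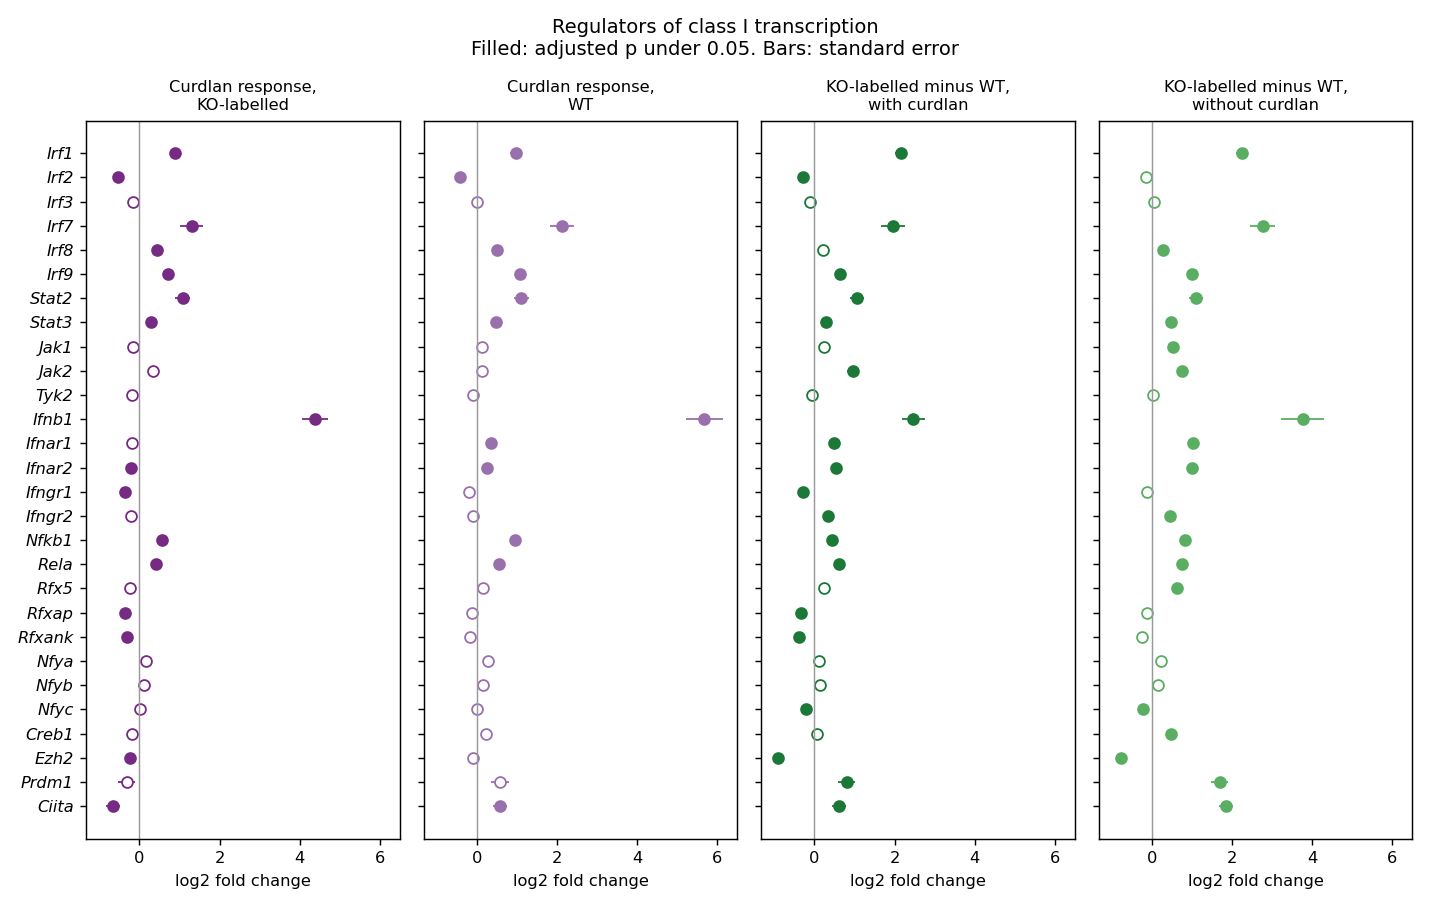
Log2 fold changes (horizontal axis) with standard errors of regulators of class I transcription in the curdlan responses of KO-labelled and WT cells and the KO-labelled minus WT differences with and without curdlan; filled points passed an adjusted p of 0.05. Ifnb1 lies farthest to the right in each comparison, and Irf1 lies above 2 in both differences between the labels.

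Over the 12 libraries, the genes whose centred log2 CPM lay nearest to each member were compared by their root-mean-square difference, as a description over libraries that share group and lane. H2-D1 had H2-K1 as its nearest of 9707 genes (0.0654). H2-K1 had H2-Q2 (0.061), H2-D1, H2-Q6 (0.0657) and the scavenger receptor gene Msr1 (0.0754) nearest, and the nearest non-members of H2-D1 were H2-Q2 (0.0719), Npc2 (0.0735) and H2-T23 (0.0749). B2m lay nearer to the myeloid genes Tyrobp (0.0902), Fcgr2b (0.0992) and the lysosomal protease gene Tpp1 (0.103) than to H2-K1 (0.196), with 442 genes nearer than that closest member. Tap1 was followed most closely by Ogfr (0.0613), Rnf31 (0.0756) and Cds1 (0.0878), and Tapbp by Cln3 (0.0725), Trafd1 (0.0765) and March5 (0.0913), and Tap1 and Tapbp were each other's nearest member (0.142). Tap2 lay nearest to Renbp (0.0795), Atp6v1g1 (0.0838) and Gnl1 (0.0896). Psmb10 lay nearest to Psme2b (0.0681), a near copy of Psme2 whose reads may be shared, then Atp6v0b (0.0826) and Arf5 (0.0874). Psmb8, which varied least (root-mean-square 0.0977), lay nearest to Mlf2 (0.0343), Rps26-ps1 (0.0402) and Arpp19 (0.0411), and 4473 genes were nearer to it than its nearest member, Psmb10. Nlrc5 had Jup (0.143), Il15ra (0.144) and Asb13 (0.169) nearest, and its nearest member, Tap2, lay at 0.284.

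The authors' deposited table of KO with curdlan against WT with curdlan gave the same direction for all 9 members. In the authors' deposited table H2-K1 had a log2 fold change of 0.72 and Tap1 0.99, and Psmb8 had 0.20 with an adjusted p of 0.0983, which does not pass where the edgeR test did. A second table, named for an interaction, held log2 fold changes that differed by a median of 0.011 from KO against WT without curdlan and by 0.473 from the difference of the responses computed here. In that authors' deposited table Tap2 had 0.38 with an adjusted p of 0.0383, and Psmb8, Psmb10 and Nlrc5 did not pass (adjusted p = 0.819, 0.151 and 0.558).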

How the data were processed

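RNA sequencing of 12 BMDC libraries (3 in each of 4 groups, Illumina TruSeq v2, which does not mark strand) was analysed from the deposited raw counts per gene. Per the submitters' processing notes, the tools included FastQC 0.11.1, TopHat2, SAMtools 1.2, DESeq2 1.8.2 and featureCounts 1.4.6. The sources used here do not give the genome build or how reads fitting several genes were counted. From the authors there are also 2 deposited comparison tables with log2 fold changes and p-values; they supplied the gene symbols (33170 genes), and their 24 other columns of library values were left out. The members and lists were chosen with earlier results of these data known.

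Genes were kept by filterByExpr by group and tested with edgeR 4.0.16 (R 4.3.3; TMM, quasi-likelihood F-test, 1 fit of 12 libraries with 4 group means, 5 contrasts, Benjamini-Hochberg adjustment over 18981 genes, threshold 0.05). CPM use TMM-scaled library sizes, and SE is the log2 fold change divided by the root of F. The procedure was tested on simulated data. Members were all named; of other lists, at most 4 genes per comparison were named, by size among those called whose mean log2 CPM reached 1. The 3 nearest non-members of each member came from genes whose mean log2 CPM reached 2. Vav genes were read beside the label and do not settle it. Of the listed regulators, 1 is included in the counts but is not reported by itself here. Count ratios were compared by exact permutation. Same-numbered libraries of a genotype, from numbers shared in the labels, had correlations of deviations of 0.129 to 0.557. Differently numbered pairs of a genotype had −0.47 to 0.246, so the 2 ranges overlap. Across genotypes same-numbered libraries had −0.151 to 0.082. In 3 WT curdlan libraries the comparison table carries other numbers than the count table. Replicates differed by more than counting noise (chi-square per degree of freedom 9.92 to 84.1). Alternatives were other scalings, no filter, DESeq2 1.42.0, fewer groups, replicate blocks and leaving out each library. Counts of 1926 to 124647 per member and library make counting error small beside replicate spread.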

Additional observations from a re-analysis of the deposited data

Results flagged for a closer look

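The test of the difference between the curdlan responses, KO-labelled minus WT, passed for 5 genes of the lists around the pathway and for 0 of 9 members with edgeR. By list these were 3 of 29 regulators, 1 of 18 loading, trimming and chaperone genes and 1 of 12 proteasome genes. None of the 19 other heavy chains or 6 receptors passed. Over all tested genes 5.21% were called, and whether the lists exceed that share was not tested. Ciita had a difference of −1.23 (log2): its level with curdlan fell by 0.66 in KO-labelled cells and rose by 0.57 in WT cells. Ifnar1 differed by −0.52 and Ifnar2 by −0.46. Hspa5 rose in both genotypes and differed by −0.49. Psme1 differed in the other direction, by 0.32.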

How the results depend on the processing

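Direction and call were compared with the reported ones for 9 members in 5 comparisons. RLE factors and DESeq2 reversed B2m (0.0035 and 0.0018) and Tap2 (0.0022 and 0.0006) with curdlan in WT cells. Upper-quartile factors reversed Psmb10 with curdlan in WT cells (−0.0396) and the H2-K1 difference of responses (0.0443). Library size alone reversed H2-K1 (−0.0148), H2-D1 (−0.0889) and Psmb10 (−0.1342) with curdlan in WT cells, H2-K1 (−0.0812), H2-D1 (−0.009) and Psmb8 (−0.0115) with curdlan in KO-labelled cells, Psmb8 with curdlan (−0.0374) and Nlrc5 without curdlan (−0.0112) between the labels, and gave 2 calls with curdlan in WT cells. No filter reversed Psmb10 in WT cells (−0.0058). Fitting the 2 groups alone reversed B2m (0.0171) and Tap2 (0.0158) with curdlan in WT cells and gave 3 calls there. Over all genes, calls there were 6123 with library size alone and 5198 with the 2 groups alone, against 3759 in the reported fit. All these reversals are of values that had not been called, except Psmb8 between the labels; the cause was not tested.

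The replicate block gave 3 calls with curdlan in WT cells and 1 for the difference of responses, and it reversed B2m with curdlan in KO-labelled cells (0.046) and its difference of responses (0.0497). A block with the numbers of the authors' comparison table, chosen after seeing the data, also gave 3 in WT cells. Over all genes these 2 blocks called 7276 and 4815 with curdlan in WT cells, against 3759 in the reported fit. Between the labels, where numbers do not pair libraries, the block gave 9 calls with and 7 without curdlan, adding Nlrc5 (0.55 and 0.37). Over all genes it called 9961 with and 8692 without curdlan, against 9762 and 8428 in the reported fit.

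Leaving out 1 library at a time gave 7 to 9 calls between the labels with curdlan and 5 to 6 without, 3 to 5 with curdlan in KO-labelled cells, 1 in every case in WT cells, and 0 to 1 for the difference. Ranges that crossed 0 were −0.0411 to 0.0345 (B2m), −0.0392 to 0.0409 (Tap2), −0.0836 to 0.0985 (Psmb10) and −0.0226 to 0.1335 (H2-D1) with curdlan in WT cells, and −0.0905 to 0.0578 (H2-K1) and −0.0124 to 0.343 (Nlrc5) for the difference; the log2 ratio of Psmb10 to Psmb7 with curdlan in WT cells ran from −0.0371 to 0.1495. Count ratios moved by less than the replicate SD with counts plus 1 and without any library. With 3 libraries a group, replicate spread and not depth limits these values.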

Other observations

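A further list held receptors that read class I and relatives of such receptors, and not every gene in it is a class I receptor. Of its 6 tested genes, 2 were higher and 2 lower in KO-labelled libraries in each state (with library size alone, 2 and 3 with curdlan and 1 and 3 without). Over all tested genes 51.4% were called with curdlan and 44.4% without. Lilrb4a, an inhibitory receptor of myeloid cells, averaged 2088 ± 173 CPM with and 1228 ± 89.6 CPM without curdlan in KO-labelled libraries, against 1338 ± 38.6 and 1006 ± 53.0 CPM in WT libraries (SD, n = 3 each). It was the 1 gene of this list that rose with curdlan in each genotype (log2 fold changes 0.77 ± 0.09 and 0.41 ± 0.09). Pirb, which binds class I on myeloid cells, was higher in KO-labelled libraries (0.41 ± 0.06 with and 0.39 ± 0.06 without curdlan), and Lilra5 was lower (−0.93 ± 0.11 and −0.999 ± 0.11).

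Single libraries carried several members at once. Among curdlan-treated KO-labelled libraries, library 4 was highest for 8 of 9 members and lowest for B2m. Unstimulated KO-labelled library 5 was lowest for 8 of 9 members, and unstimulated WT library 1 was highest for 9 of 9.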
